A study of Mus musculus with 6 samples.

Results

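The genes described here are the major histocompatibility complex (MHC) class II genes of the mouse and their transactivator in C0321 mammary tumors: H2-Aa, H2-Ab1, H2-Eb1, Cd74, Ciita, H2-DMa, H2-DMb1, H2-DMb2 and H2-Ob. They are 9 of the 13730 genes of the deposited count table, found by their symbols. They were chosen by their CPM in this same contrast, since earlier results of these data had shown them higher in treated tumors, so their differences between the groups are given as a description and their p-values lend them no support. Tumor RNA came from 6 female FVB mice, aged 6 to 10 weeks when the tumor cells were injected, 3 of them controls and 3 dosed orally with sulindac sulfide (SS), 60 mg/kg daily over 14 days. All mice had received C0321 cells, in a mix of Matrigel and PBS, in the mammary fat pad, and dosing began once a mass could be felt. C0321 is a single mouse triple-negative breast cancer line, derived from tumors of Lfng-/- mice on the FVB background, so both groups share that deletion. The hosts were wild-type mice of the same strain with an intact immune system. The sample labels name the agent as a sulfate and the series' design text names the control as saline, whereas the study's methods name sulindac sulfide and vehicle.

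Class II molecules are pairs of an alpha and a beta chain that hold peptides from the endosomes and show them to CD4 T cells. The invariant chain, encoded by Cd74, escorts the pair to the endosome, where proteases cut it down to a small fragment. H2-DM, a non-classical class II molecule, exchanges that fragment for other peptides, and H2-O restrains H2-DM. Dendritic cells, B cells and activated macrophages express these genes, and many other cells do so after interferon-gamma. CIITA, the product of Ciita, does not bind DNA itself but joins a complex of RFX, CREB and NF-Y factors on paired promoter elements named the X box and the Y box.

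The promoters of the class II genes are shown first, because these shared elements are what the genes have in common besides their function. In the genome, 7 of the members lie within a single interval of 194 kb on chromosome 17, from 34122832 to 34316675 (GRCm38). RefSeq promoters (GRCm38.p6, 250 bases before to 50 bases after each start) were at hand for 6 of the members on chromosome 17. Capitals mark the X box letters AACNNNTGA and the Y box letters GATTGG (an inverted CCAAT), which were searched on both strands and do not overlap one another. These letters were settled on with the sequences in view.
H2-DMb2, chr17:34145110-34145181, plus strand: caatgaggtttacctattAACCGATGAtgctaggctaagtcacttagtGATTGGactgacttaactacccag
H2-DMb1, chr17:34153081-34153152, plus strand: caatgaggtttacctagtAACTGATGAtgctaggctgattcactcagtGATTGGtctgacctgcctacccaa
H2-Ob, chr17:34238802-34238870, plus strand: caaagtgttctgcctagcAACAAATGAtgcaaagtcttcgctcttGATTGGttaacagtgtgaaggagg
H2-Aa, chr17:34287849-34287917, minus strand: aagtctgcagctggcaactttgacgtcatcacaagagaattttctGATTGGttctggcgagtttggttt
H2-Eb1, chr17:34305760-34305830, plus strand: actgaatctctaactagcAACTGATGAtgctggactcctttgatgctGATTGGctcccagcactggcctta

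An X box followed by a Y box on the strand of the gene was found in 4 of these 6 members: H2-DMb2, H2-DMb1, H2-Ob and H2-Eb1. The space between both boxes was 21 bases in H2-DMb1 and in H2-DMb2, 20 bases in H2-Eb1 and 18 bases in H2-Ob. The Y box began 91 bases before the start site in H2-DMb2, 62 in H2-DMb1, 60 in H2-Eb1 and 58 in H2-Ob. These distances are to the start in the promoter table, and the transcript counted for H2-DMb2 starts 167 bases further downstream, while those of the other 3 start at the same base. In H2-Aa the Y letters stood 49 bases before that start (the counted transcript starts 51 bases downstream of it), with no match to the X letters as spelled, and H2-DMa held no such pair. Among all 32851 promoters, 11.9% held the X letters and 16.1% the Y letters on either strand. The ordered pair, with 10 to 30 bases between the boxes, was held by 0.125% of promoters on either strand. On the strand of the gene it was held by 0.0791%, or 26 promoters of 25 genes, of which 4 genes are members. A match is a run of letters and not a measured binding site.

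The genes of the surface chains and of the invariant chain carried nearly all class II RNA. RNA levels are given as CPM, the counts of a gene scaled to the same library total in every tumor with the TMM factors of edgeR. H2-Ab1, the beta chain of I-A, was at 807, 491 and 669 CPM in control tumors 1, 2 and 3 and at 1476, 1273 and 976 CPM in SS tumors 1, 2 and 3. Every SS tumor was above every control tumor. H2-Aa, its alpha partner, was at 1123, 602 and 1033 CPM in control and at 1896, 1532 and 1103 CPM in SS tumors. Here SS tumor 3 lay below control tumor 1, so the groups overlapped. H2-Eb1, the beta chain of I-E, was at 27.6, 13.8 and 16.6 CPM in control and at 46.0, 33.9 and 29.0 CPM in SS tumors, without overlap. FVB mice carry the q haplotype of the MHC, and strains with this haplotype do not make the I-E alpha chain, so that H2-Eb1 has no partner at the cell surface.

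Cd74, which like Ciita (chromosome 16) lies outside the MHC, on chromosome 18, was the most abundant member. It was at 2297, 1406 and 1962 CPM in control and at 3446, 3201 and 1986 CPM in SS tumors, and SS tumor 3 again lay below control tumor 1. The order of the tumors was alike for all 4 genes, with control tumor 2 lowest and SS tumor 1 highest. Their summed level was 4254, 2513 and 3680 CPM in control tumors and 6864, 6039 and 4094 CPM in SS tumors. The 9 members together held between 0.251% and 0.426% of all counts in control tumors and between 0.410% and 0.687% in SS tumors. In RNA of whole tumors, more cells of a type and more RNA per cell cannot be told apart.

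**Figure D1:**
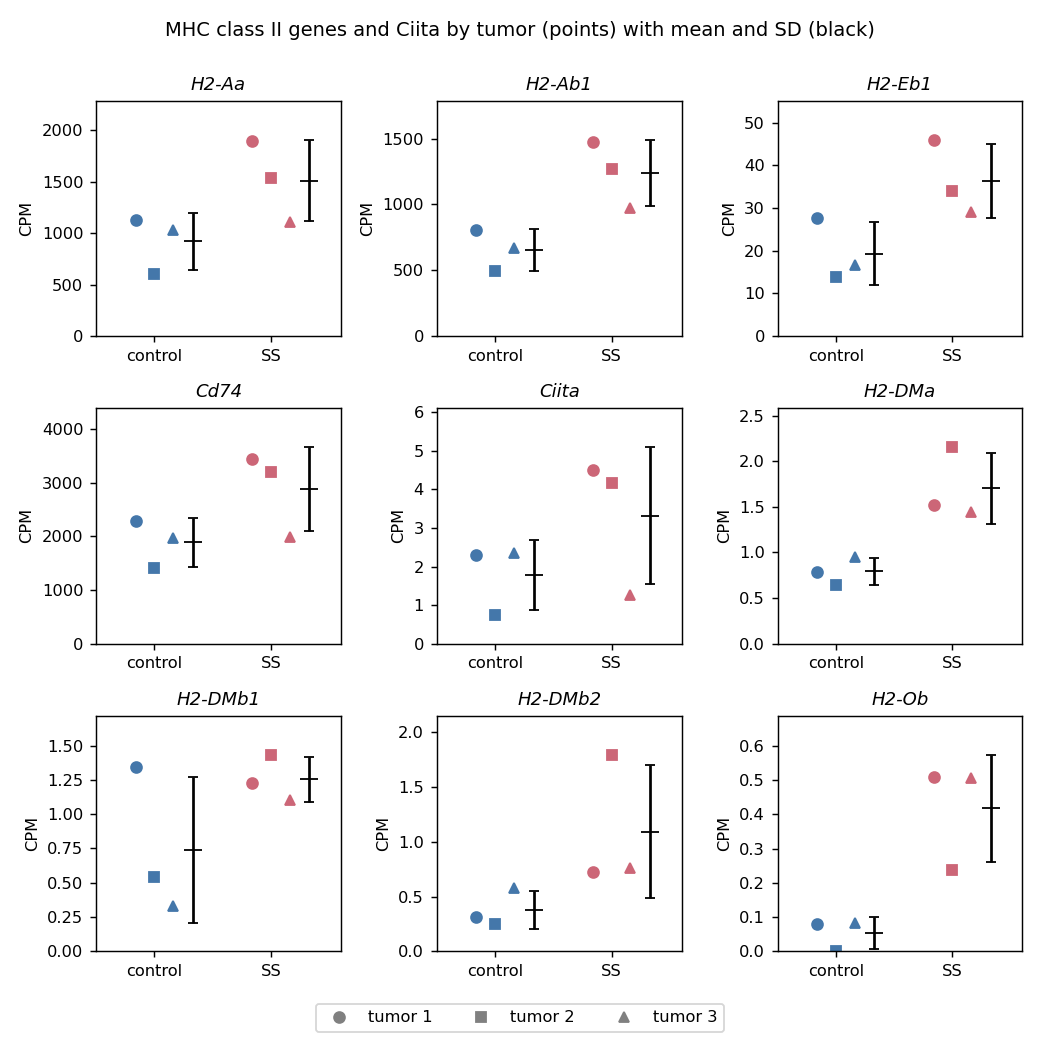
Each panel plots the CPM of 1 member on the vertical axis, which starts at 0, for the 3 control tumors (blue) and the 3 SS tumors (red), with the mean and SD beside them in black. All SS points lie above all control points for H2-Ab1, H2-Eb1, H2-DMa, H2-DMb2 and H2-Ob. SS tumor 3 (triangle) falls among the control tumors for H2-Aa, Cd74 and Ciita, and control tumor 1 lies among the SS tumors for H2-DMb1.

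As group means, H2-Ab1 averaged 656 ± 158 CPM (SD, n = 3) without and 1241 ± 251 CPM with SS (log2 fold change 0.92 ± 0.21, SE). H2-Aa was at 919 ± 278 and 1510 ± 397 CPM (log2 fold change 0.72 ± 0.27, SE). H2-Eb1 was at 19.3 ± 7.28 and 36.3 ± 8.77 CPM (log2 fold change 0.91 ± 0.29, SE). Cd74 was at 1888 ± 450 and 2878 ± 782 CPM (log2 fold change 0.61 ± 0.24, SE). The log2 fold changes of these 4 genes thus ran from 0.61 to 0.92.

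Ciita was measured at far lower counts. It was at 2.29, 0.737 and 2.34 CPM in control tumors (29, 15 and 57 counts) and at 4.50, 4.17 and 1.27 CPM in SS tumors (62, 35 and 15 counts). SS tumors 1 and 2 were above all control tumors, but SS tumor 3 was below 2 of them. The fitted difference was 0.89 ± 0.64 (SE) on the log2 scale.

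Ciita is known to be transcribed from separate promoters that different cell types use, and the deposited table splits its counts over 4 RefSeq transcripts with 3 starts on chromosome 16 (GRCm38): 10480072, 10488178 and 10489781. In control tumor 1 and in SS tumors 2 and 3 the split was the same to 3 digits, with 72.3% of the counts on the transcript that starts at 10489781, 15.8% on that at 10488178 and 12.0% on the pair at 10480072. Control tumor 3 was similar, with 76.6%, 16.7% and 6.62%. In control tumor 2 and SS tumor 1, by contrast, the transcripts that start at 10480072 took 100% and 99.6%. One tumor of each group stood apart in this way, at 15 and 62 counts. Of the counts summed per group, 22.1% in control and 60.5% in SS tumors fell on the start at 10480072, and 61.3 counts of the latter were those of SS tumor 1. Identical shares in 3 tumors of different depth are a property of the estimated counts. The starts at 10489781 and 10488178 also kept nearly the same proportion to each other in every tumor. The split among starts is thus uncertain in every tumor, and these counts do not show whether the starts differ with treatment. For Cd74 the 2 transcripts share both ends, and the one that encodes the longer form took 38.4 ± 4.65% (SD, n = 3) of the counts in control and 35.0 ± 7.21% in SS tumors, with overlap.

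**Figure D2:**
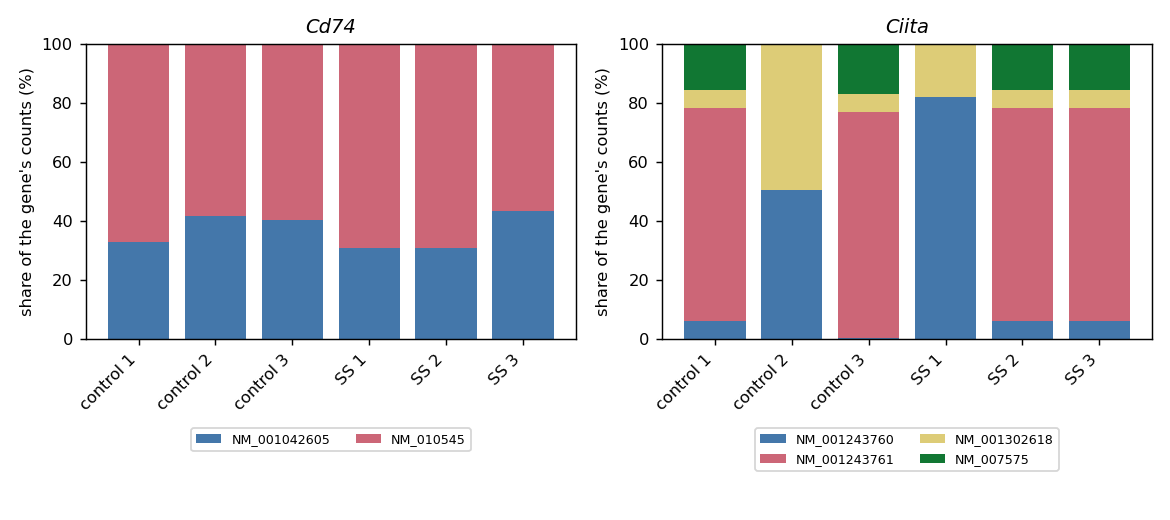
Stacked bars give the share of each gene's estimated counts, in percent, on each RefSeq transcript of Cd74 (left) and Ciita (right) in the 6 tumors. Control tumor 2 and SS tumor 1 show no more than 0.295% on either of the 2 later starts of Ciita (red and green), and the other 4 tumors show nearly the same split.

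The genes of peptide exchange were also near the lower limit of measurement. H2-DMa, the alpha chain of H2-DM, was at 0.790, 0.639 and 0.944 CPM in control (10, 13 and 23 counts) and at 1.52, 2.15 and 1.44 CPM in SS tumors (21, 18 and 17 counts). The groups did not overlap, and the fitted difference was 1.09 ± 0.48 (SE) on the log2 scale. H2-DMb1, a beta chain, was at 1.34, 0.541 and 0.328 CPM in control and at 1.23, 1.43 and 1.10 CPM in SS tumors. Control tumor 1 lay between the SS tumors, and the fitted difference was 0.80 ± 0.64 (SE) on the log2 scale. H2-DMb2, a second beta chain, was at 0.316, 0.246 and 0.575 CPM in control and at 0.726, 1.79 and 0.761 CPM in SS tumors, from 4 to 15 counts per tumor.

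Values of H2-DMb1 and H2-DMb2 are uncertain one by one, because the genes are near copies. Their coding sequences, both of 783 bases, differ at 32 positions, an identity of 95.9%, and the longest stretch without a difference runs for 221 bases. Of all stretches of 75 bases, the read length, 19.1% of those in the H2-DMb1 transcript also occur in H2-DMb2. The densest window of differences, coding bases 193 to 267, is given to show where reads can tell them apart, with the 17 differing bases in capitals (GENCODE M21 transcripts).
H2-DMb1: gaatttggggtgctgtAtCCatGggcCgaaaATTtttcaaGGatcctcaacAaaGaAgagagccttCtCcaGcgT
H2-DMb2: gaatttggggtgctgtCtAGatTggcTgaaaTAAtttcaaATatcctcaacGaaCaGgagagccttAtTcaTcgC
The estimated counts of both were fractional in 5 of 6 tumors, but their sum came within 4e-05 of a whole number in all 6, at 21, 16 and 22 counts in control and 27, 27 and 22 counts in SS tumors. The sum stood at 1.66, 0.786 and 0.903 CPM in control and at 1.96, 3.22 and 1.86 CPM in SS tumors, without overlap. Its fitted difference was 1.07 ± 0.51 (SE) on the log2 scale, a combination chosen after the values had been seen.

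H2-Ob, the beta chain of the inhibitor H2-O, had 1, 0 and 2 counts in control tumors and 7, 2 and 6 counts in SS tumors. The count of 0 in control tumor 2 allows a level of up to 0.146 CPM before TMM scaling. Summed per group this is 3 against 15 counts, a ratio of 8.44 after division by library size, with an exact 95% interval from 2.39 to 45.5 that covers counting error only. H2-Ob and H2-DMb2 did not pass edgeR's filter on low counts and have no fitted fold change.

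Of the 7 members tested, 0 had an adjusted p under 0.05 by the quasi-likelihood test of edgeR, adjusted after Benjamini and Hochberg over 10902 genes, as for 0% of all genes. Unadjusted, H2-Aa, H2-Ab1, H2-Eb1 and Cd74, 4 of the 7, were under 0.05 and higher in SS tumors, against 3.19% of all genes, while 0 members were under 0.05 and lower, against 3.16%. The groups did not overlap, with SS higher, for 3 of the 7 (H2-Ab1, H2-Eb1 and H2-DMa), against 6.51% of all genes. All 7 log2 fold changes were above 0, with a median of 0.89, whereas the median of all genes tested was -0.0013 and 49.8% were above 0. The counts over these 7 lean toward SS by how they were filtered. H2-DMa, H2-DMb1 and Ciita reached the filter's 0.769 CPM in all 3 SS tumors but in 2, 1 and 2 of the control tumors, and so passed it only with the tumors in which they were high. The 4 others, H2-Aa, H2-Ab1, H2-Eb1 and Cd74, reached it in all 6 tumors. With DESeq2's Wald test, 1 member, H2-Ab1, had an adjusted p under 0.05 (0.00401), where 0.405% of the genes to which that tool gave an adjusted p were called higher in SS tumors. DESeq2 gave no adjusted p for Ciita, H2-DMa and H2-DMb1. Without SS tumor 1, the count of 4 members under an unadjusted 0.05 in edgeR's test fell to 1, H2-Ab1, and without control tumor 2 or without SS tumor 2 to 2, H2-Ab1 and H2-Eb1. Quantile normalization and a t statistic, which the study names, gave 2, H2-Ab1 and H2-DMa. They were run here after edgeR's filter and without the study's own software, so they do not repeat its test.

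**Figure D3:**
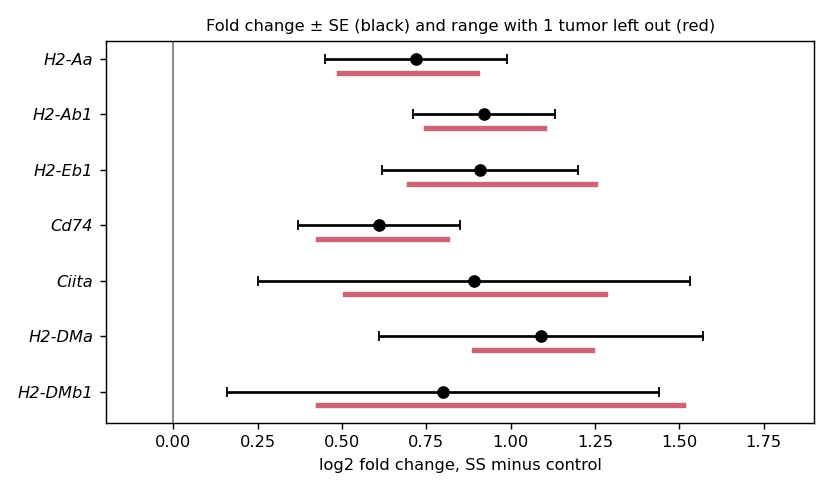
Black points give the log2 fold change, SS minus control, of the 7 members tested, with bars of 1 standard error, and red lines span the values found when each tumor was left out in turn. Every red line lies right of 0, from 0.75 to 1.10 for H2-Ab1 and from 0.43 to 1.51 for H2-DMb1.

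Per length of transcript, the levels of the members spanned several orders. In control tumors Cd74 was at 1466 ± 358 CPM per kb (SD, n = 3), H2-Aa at 815 ± 247, H2-Ab1 at 541 ± 131 and H2-Eb1 at 11.6 ± 4.36. The order Cd74, H2-Aa, H2-Ab1 and H2-Eb1 held in 6 of 6 tumors, although the spreads of H2-Aa and H2-Ab1 overlapped within each group. H2-DMb1 was at 0.528 ± 0.372 CPM per kb, H2-DMa at 0.477 ± 0.0920, Ciita at 0.422 ± 0.214 and H2-DMb2 at 0.263 ± 0.117, and the spreads of these 4 overlapped except for H2-DMa and H2-DMb2, where H2-DMa was the higher in each of the 3 control tumors. H2-Ob was lowest, at 0.0201 ± 0.0174 CPM per kb. H2-Ab1 thus stood 1134 times above H2-DMa per kb in control and 994 times above it in SS tumors. It stood 46.6 and 47.2 times above H2-Eb1. Reads were counted on a reference built from C57BL/6J mice, whose MHC alleles differ from those of FVB mice, and the effect of this on the levels was not tested.

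Ratios within a tumor do not depend on library size. The ratio of H2-Aa to H2-Ab1 was 1.39 ± 0.159 (SD, n = 3) in control and 1.21 ± 0.0778 in SS tumors, with overlap. The ratio of H2-Eb1 to H2-Ab1 was 0.0290 ± 0.00474 and 0.0292 ± 0.00233. Cd74 against the sum of H2-Aa and H2-Ab1 was at 1.19, 1.29 and 1.15 in control and at 1.02, 1.14 and 0.955 in SS tumors. The SS tumors were lower on this ratio without overlap, by a small margin between 1.14 and 1.15. Against H2-Ab1 alone Cd74 did not overlap either, at 2.85, 2.86 and 2.93 in control and at 2.34, 2.52 and 2.03 in SS tumors. Against H2-Aa alone it did, at 2.05, 2.34 and 1.9 and at 1.82, 2.09 and 1.8.

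Levels of cell markers were set beside the class II genes. Ptprc, which encodes the leukocyte antigen CD45, was at 64.2, 41.4 and 45.4 CPM in control and at 59.8, 54.7 and 58.2 CPM in SS tumors (two-sided exact permutation p = 0.4, where 0.1 is the smallest possible). The ratio of H2-Ab1 to Ptprc was 12.6, 11.9 and 14.7 in control and 24.7, 23.3 and 16.8 in SS tumors, without overlap. Csf1r, the receptor for the macrophage growth factor CSF1, was at 384 ± 58.2 CPM (SD, n = 3) and 416 ± 49.5 CPM (exact permutation p = 0.5). The ratio of H2-Ab1 to Csf1r was 2.51, 1.25 and 1.53 in control and 3.30, 3.54 and 2.21 in SS tumors, so that SS tumor 3 lay below control tumor 1. Itgax, which encodes CD11c of dendritic cells and some macrophages, was at 66.9, 49.4 and 50.9 CPM in control and at 173, 131 and 89.6 CPM in SS tumors (exact permutation p = 0.1, the smallest possible). The ratio of H2-Ab1 to Itgax was 12.1, 9.94 and 13.1 in control and 8.54, 9.69 and 10.9 in SS tumors, with overlap. The 4 chains summed, against the summed leukocyte list, were at 3.68, 2.47 and 3.75 in control and at 5.24, 5.41 and 3.65 in SS tumors, and against the summed macrophage list at 5.77, 3.34 and 4.20 and at 7.07, 7.76 and 4.61. Both overlapped, with SS tumor 3 among the control tumors. The other chains, whose ratios were added after the values had been seen, were divided in this. H2-Eb1 to Ptprc did not overlap, at 0.430, 0.334 and 0.366 in control and at 0.769, 0.619 and 0.498 in SS tumors. H2-Aa to Ptprc overlapped, at 17.5, 14.5 and 22.7 and at 31.7, 28.0 and 18.9, and so did Cd74 to Ptprc, at 35.8, 34.0 and 43.2 and at 57.6, 58.5 and 34.1. Per unit of Csf1r all 4 chains overlapped. Per unit of Itgax H2-Aa, H2-Ab1 and H2-Eb1 overlapped, and Cd74 was lower in SS tumors, at 34.3, 28.4 and 38.5 in control and at 19.9, 24.4 and 22.2 in SS tumors.

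**Figure D4:**
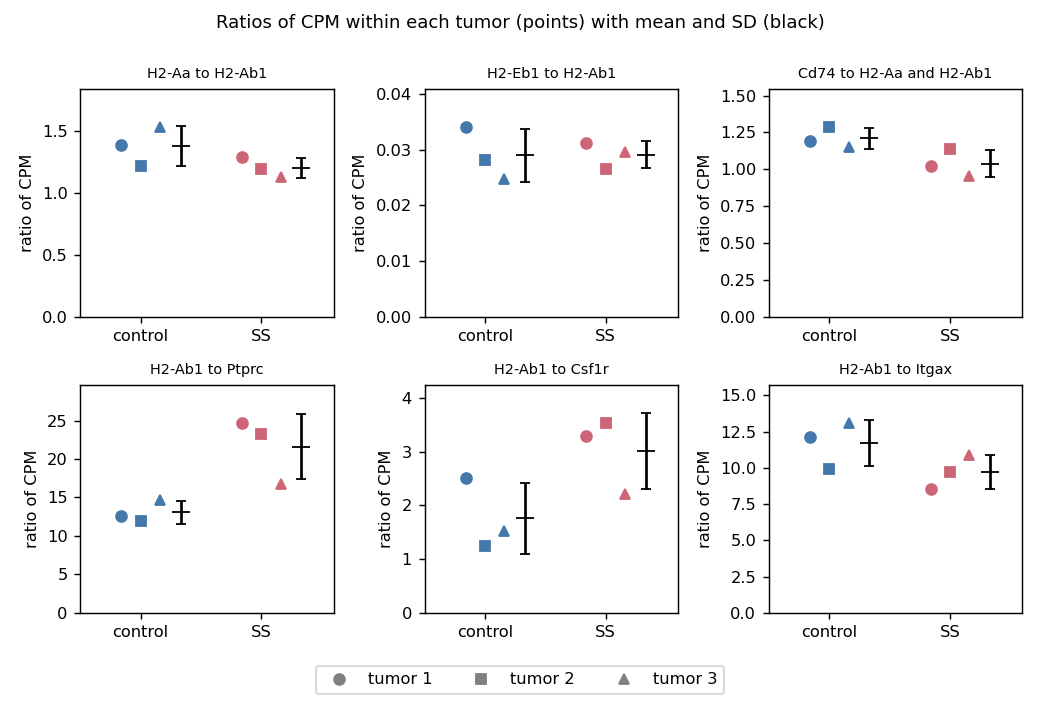
Each panel plots a ratio of CPM values within a tumor, on an axis from 0, for the 3 control (blue) and 3 SS tumors (red), with the mean and SD in black. The ratio of H2-Ab1 to Ptprc separates the groups at 14.7 and 16.8, while the ratio to Itgax overlaps.

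Whole lists of markers were also counted, with edgeR's test. Of the leukocyte list, 5 of 6 genes tested were higher, Hcls1 alone at an unadjusted p under 0.05 (0.0462), with a median log2 fold change of 0.16, or 0.042 without SS tumor 1 and 0.27 without control tumor 1. Its summed level ranged from 981 to 1155 CPM in control and from 1116 to 1309 CPM in SS tumors. All 10 macrophage genes were higher, with a median of 0.15 and 0 genes under 0.05, and their sum ranged from 737 to 876 CPM and from 778 to 970 CPM. Without control tumor 1 that median was -0.01. Of the dendritic cell list, 3 of 5 genes tested were higher and 2 lower, with a median of 0.11. That median was 1.39 without control tumor 1 and -0.45 without control tumor 2. It was -0.41 without control tumor 3 and -0.075 without SS tumor 2, so its direction was not stable. The filter was rerun on each set of tumors, so the genes behind these medians can differ. Itgax was the most abundant gene of the list and had its smallest p (unadjusted 0.001, adjusted 0.679 by edgeR). The summed level of that list was 78.4 to 137 CPM in control and 134 to 221 CPM in SS tumors, and without Itgax it was 27.5 to 70.5 CPM and 44.3 to 61.4 CPM. Fscn1, which mature dendritic cells use to bundle actin, was at 38.9 ± 13.8 and 41.8 ± 8.72 CPM (SD, n = 3), the chemokine receptor gene Ccr7 at 4.43 ± 5.06 and 4.30 ± 2.01 CPM, and Batf3, a factor of cross-presenting dendritic cells, at 1.64 ± 1.32 and 3.33 ± 2.40 CPM, all with overlap. Zbtb46, another gene of the list, was at 0.902 ± 0.519 and 0.757 ± 0.221 CPM, also with overlap (log2 fold change -0.23). Of the other dendritic cell genes, Flt3 and Xcr1 stayed at or below 1.34 CPM, with Xcr1 at 0 in SS tumors 1 and 3, and Clec9a was not analysed here.

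Markers of lymphocytes were low and uneven among the tumors. B cell genes, none of which passed the filter, summed to 19.0, 2.02 and 0.287 CPM in control and to 0.943, 0 and 0.423 CPM in SS tumors. Pax5, which B cells need for their identity, had 0 counts in all SS tumors. The T cell genes Cd3e and Lck summed to 80.5, 19.7 and 16.5 CPM in control and to 32.4, 23.4 and 11.4 CPM in SS tumors. Their median log2 fold change was -0.78, or 0.31 without control tumor 1, which stood apart on these genes. That tumor also had the highest adipocyte sum, 46.3 CPM, where the range over the other tumors was 0.041 to 19.2 CPM and the list's median log2 fold change was -0.29, or 5.53 without it. Of the epithelial list, 2 of 6 genes were higher, with a median of -0.089, or 0.98 without control tumor 1 and 0.30 without SS tumor 3, and Krt18 was the 1 gene under an unadjusted p of 0.05 (edgeR, 0.00387), lower in SS tumors at 63.8 ± 5.49 against 90.1 ± 9 CPM (SD, n = 3). Of the mesenchymal list, 1 of 5 was higher, with a median of -0.20, or -0.10 without control tumor 3. Vim, the mesenchymal filament gene, was between 5875 and 8620 CPM in all tumors. The part of these markers in the levels of the class II genes was not tested, beyond the ratios above.

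The factors that bind class II promoters differed little in level. Of 6 tested, 5 were higher in SS tumors by a median of 0.074 over the list, with 0 under an unadjusted p of 0.05 in edgeR's test. Rfx5, a DNA-binding subunit of RFX, averaged 9.62 ± 1.87 CPM (SD, n = 3) without and 11.7 ± 2.02 CPM with SS. Nfya, a subunit of NF-Y, was at 53.5 ± 8.24 and 57.9 ± 11.1 CPM. The list's median was -0.055 without SS tumor 2.

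Of 10 tested inducers and regulators of Ciita, 7 were higher and 3 lower, with a median of 0.12, or 0.042 without control tumor 3. Spi1, which encodes the myeloid factor PU.1, was at 70.5, 68.4 and 63.6 CPM in control and at 91.9, 77.4 and 86.2 CPM in SS tumors. It had an unadjusted p of 0.017 and an adjusted p of 0.771 by edgeR, and was the 1 gene of the list under 0.05. Irf4, a factor of lymphoid and dendritic cells, was at 7.27 ± 4.32 CPM and 12.7 ± 1.02 CPM, with overlap and a log2 fold change of 0.82. Irf8, a factor of dendritic and other myeloid cells, lay the other way, at 10.4 ± 1.94 and 7.44 ± 1.22 CPM, with overlap and a log2 fold change of -0.49. Neither was under an unadjusted p of 0.05. Irf1, which interferon-gamma induces, was at 58.4 ± 6.92 and 65.5 ± 3.14 CPM.

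Among genes of lysosomal processing, 7 of 9 were higher and 2 lower, with a median of 0.22, or 0.061 without SS tumor 1 and 0.35 without SS tumor 2. Ifi30, a thiol reductase that opens disulfide bonds of antigens, was at 1.19, 1.82 and 1.35 CPM in control and at 3.12, 2.5 and 2.96 CPM in SS tumors, without overlap, and was the 1 gene of the list with an unadjusted p under 0.05 (edgeR, 0.0417). Ctss, the protease of the late cut of the invariant chain, was at 10.4 ± 2.54 and 14.1 ± 5.15 CPM, with overlap. Marchf1, a ubiquitin ligase that takes class II molecules off the surface, was at 19.4, 18.1 and 17.6 CPM in control and at 21.4, 34.6 and 24.1 CPM in SS tumors, without overlap, with an unadjusted p of 0.031 by edgeR. Marchf8, a related ligase, was at 4.36 ± 0.473 and 3.89 ± 0.493 CPM. The median over both ligases was 0.19.

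Costimulatory genes and receptors of class II were mostly too low to test, and 2 of 6 passed the filter, with a median log2 fold change of 0.52. That median was 0.044 without control tumor 2 and -0.11 without control tumor 3, where Cd4 also passed the filter. Pdcd1lg2, a ligand of PD-1, was at 12.0, 8.26 and 14.7 CPM in control and at 27.4, 19.2 and 13.7 CPM in SS tumors, with overlap (edgeR, unadjusted p = 0.0353, adjusted p = 0.771). Cd86, a ligand of CD28, had 2, 2 and 3 counts in control and 11, 5 and 2 counts in SS tumors. Cd4, the receptor that binds class II, had 25, 12 and 10 counts in control and 12, 0 and 3 counts in SS tumors.

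The 4 other genes of the table that lie in the class II interval serve class I presentation. Tap1, a subunit of the peptide transporter, was at 1.5, 1.47 and 2.3 CPM in control and at 4.43, 3.58 and 2.70 CPM in SS tumors, without overlap (log2 fold change 1.01 ± 0.40, SE). Tap2, its partner, was at 4.43, 3.64 and 3.98 CPM and at 5.37, 6.44 and 6.34 CPM, also without overlap (log2 fold change 0.59 ± 0.26, SE). The proteasome subunit genes Psmb9 and Psmb8 overlapped between the groups, with log2 fold changes of 0.67 ± 0.40 and 0.27 ± 0.24 (SE). By edgeR's test only Tap1 of these 4 was under an unadjusted p of 0.05 (0.0369), with an adjusted p of 0.771.

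**Figure D5:**
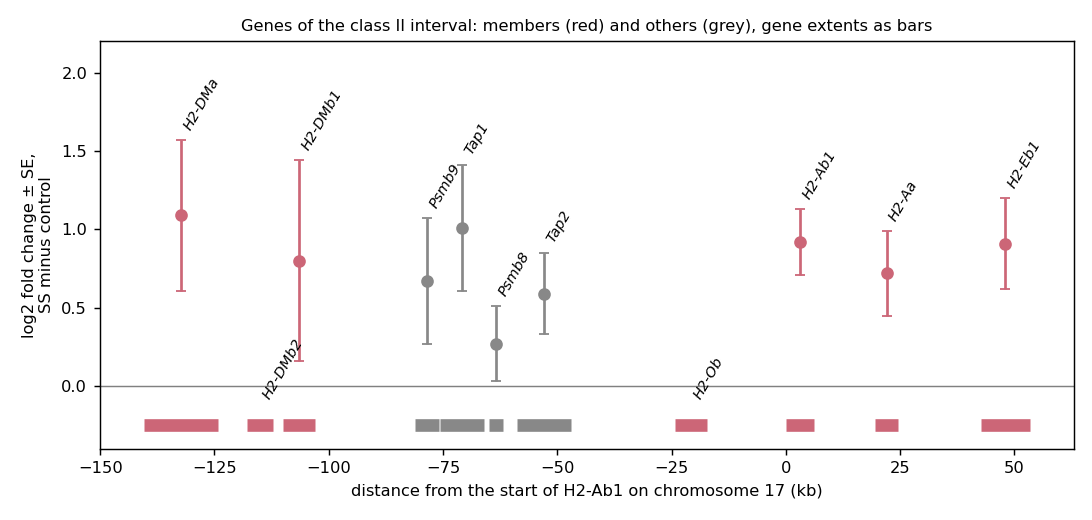
Points give the log2 fold change, SS minus control, with 1 standard error, of genes along the class II interval, against the distance from the start of H2-Ab1 in kb. Class II members are red and genes of class I presentation grey, bars below mark the extent of each gene, and H2-DMb2 and H2-Ob have no point since they were not tested; all 9 points lie above 0, from 0.27 for Psmb8 to 1.09 for H2-DMa.

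The genes whose pattern over the 6 tumors was most like that of the surface and invariant chains were ranked by Pearson's r with the mean log2 CPM of H2-Aa, H2-Ab1, H2-Eb1 and Cd74. That mean was 8.94, 8.11 and 8.60 in control and 9.67, 9.41 and 8.97 in SS tumors. Of 7641 genes with a mean of at least 5 CPM, the highest r belonged to Mindy2 (0.995), Son (0.988), Ercc6 (0.986), Oaz1 (0.986), Azin2 (0.984), Lrrc47 (0.975), Fgl2 (0.975), Cish (0.975), Arrb1 (0.972) and Ccdc71l (0.970). They are a mixed set, such as the splicing cofactor Son, the DNA repair gene Ercc6 and the myeloid gene Fgl2. With 6 tumors and 7641 genes ranked, values this high are the extremes of a long list and are given with no test. Son, at 2228 ± 129 and 2433 ± 91.0 CPM (SD, n = 3), overlapped between the groups and had a log2 fold change of 0.13. Among listed genes r was 0.945 for Itgax, 0.929 for Pdcd1lg2, 0.866 for Irf4, 0.762 for Ptprc and 0.045 for Csf1r. Among the other members r was 0.89 for Ciita, 0.88 for H2-Ob, 0.84 for H2-DMa, 0.74 for H2-DMb2 and 0.73 for H2-DMb1. These values include the difference between the groups by which the members were chosen. Over deviations from the group means, r was 0.92 for Ciita, 0.64 for H2-Ob, 0.49 for H2-DMa, 0.48 for H2-DMb1 and 0.29 for H2-DMb2. All points share the same 6 libraries and their depths.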

How the data were processed

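RNA of 6 tumors was sequenced with a stranded, polyadenylated kit in pairs of 75 bases. The table that the authors deposited holds estimated counts for RefSeq transcripts, not normalized, with low entries removed (the lowest sum over the 6 tumors was 10 counts). The submitters' processing notes name CASAVA 1.8.1, Bowtie2 2.2.5, STAR 2.5.3a and mm10 without their roles, and the study's methods name quantile normalization and a t statistic. Tumors had 8468914 to 24441522 counts in all, and 3 counts, the limit for a gene at 0, correspond to 0.123 to 0.354 CPM before TMM scaling. This covers counting error only.

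Here the 20648 transcripts were summed by symbol to 13730 genes and rounded, after 22 symbols held as dates had been restored. edgeR 4.0.16 in R 4.3.3 was run with TMM factors, its filter on low counts (which left 10902 genes) and the quasi-likelihood test with Benjamini-Hochberg adjustment, and was tested on simulated data. For standard errors, log2 fold changes were divided by the root of F. The filter asks for a minimum in 3 tumors, and Ciita, H2-DMa and H2-DMb1 passed it only with the SS tumors. Lists are described by counts and medians. Genes named are the members, up to 5 of each list (those under an unadjusted p of 0.05 first, then by level), those of the class II interval and the 10 most alike (prior count 2 for log2 CPM). Irf4, Irf8, Flt3, Xcr1 and the interval genes over that p were named after their values had been seen. The members and lists were chosen with earlier results of these data known. Replicates are tumors of different mice, and 3 per group allow no exact permutation p below 0.1. Alternatives were RLE and upper-quartile scaling, quantile normalization, DESeq2 1.42.0, limma-voom (limma 3.58.1) with sample weights, other filters, a replicate block and leaving out each tumor. The study's pathway software was not used here.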

Additional observations from a re-analysis of the deposited data

How the results depend on the processing

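Of 377 values recomputed under alternatives, 362 kept their direction and side of the threshold or moved by less than the replicate spread, 14 moved further, 1 (H2-Ab1 with DESeq2) crossed the threshold and 0 changed the sign of a called value. The log2 fold change of each member tested was above 0 under every alternative run, from 0.75 to 1.10 for H2-Ab1, 0.49 to 0.90 for H2-Aa, 0.70 to 1.25 for H2-Eb1, 0.43 to 0.81 for Cd74, 0.51 to 1.28 for Ciita, 0.89 to 1.24 for H2-DMa and 0.43 to 1.51 for H2-DMb1. DESeq2's Wald test called 36 genes after adjustment, where edgeR called 0 at a smallest adjusted p of 0.616 and 693 genes at an unadjusted p under 0.05; the cause was not tested. H2-Ab1 was the 1 member called, with adjusted p between 0.00401 (DESeq2) and 0.969 over its alternatives.

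With 1 tumor left out in turn, the median log2 fold change of lists ranged from -0.01 to 0.26 for macrophages, -0.45 to 1.39 for dendritic cells, -1.15 to 0.31 for T cells, -0.89 to 5.53 for adipocytes, -0.11 to 0.95 for costimulation, -0.055 to 0.15 for the factors that bind with CIITA, -0.36 to 0.98 for epithelium, 0.061 to 0.35 for lysosomal processing, 0.042 to 0.27 for leukocytes, 0.042 to 0.17 for inducers of Ciita, 0.12 to 0.25 for both ligases and -0.25 to -0.10 for mesenchymal cells. The last 6 moved by less than the spread between replicates. The lists of T cells, dendritic cells, macrophages and adipocytes moved beyond the spread without control tumor 1, costimulation without control tumor 2 or 3, where Cd4 was tested too, and the factors without SS tumor 2. Since the filter was rerun on each set of tumors, the genes tested in a list can differ, and the cause of the other moves was not tested. Without 1 tumor, 1173 to 1359 genes did not overlap with SS higher, against 710, since fewer tumors overlap less often. The adipocyte median also changed direction with all 6 tumors kept. It was 2.35 with limma-voom, 1.62 with quantile normalization, 1.49 with the replicate block and 0.15 without a filter. With RLE scaling and the filter at 1 CPM it was -0.30, and with upper-quartile scaling and DESeq2 -0.32.

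With the replicate block, 0 genes passed adjustment, 643 were under an unadjusted p of 0.05 and the members' median was 0.93. Deviations of tumors with the same number correlated at 0.0939, 0.0177 and 0.0917, all below 0.1, and these tumors are from different mice, so the numbers were not read as pairs. Without a filter on low counts, the fitted log2 fold change was 1.47 for H2-DMb2 and 2.81 for H2-Ob, values that depend on the prior count at so few reads. Low counts limit the precision of Ciita, H2-Ob and the H2-DM genes.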
